A study of Homo sapiens with 70 samples.

Results

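Oncogene-induced senescence was compared with growth in IMR90 cells, a strain of normal human fetal lung fibroblasts, over all genes counted and with most room for genes outside the inflammatory secretome (SASP) and the cell cycle. The comparison took 16 of the 70 libraries of the series, chosen by their titles alone, with 8 libraries of growing cells (Grow) and 8 of senescent cells (OIS). Both groups carried ER:HRAS G12V, a mutant *HRAS* fused to an oestrogen receptor domain and delivered in pLNCX2, together with pMSCV miR v, the control backbone without a hairpin. Grow cells were taken at day 0 without 4-hydroxytamoxifen (4OHT), and OIS cells after 6 days in 100 nM 4OHT, which switches the fusion protein on. RAS activity, 4OHT itself and the days of culture cannot be told apart, because every OIS library had all of them. Levels in other IMR90 cells with ER:HRAS G12V are given beside the main values for 2 comparisons with libraries of their own. In OIS-shA1 against Grow-shA1 the backbone carried a hairpin against *HMGA1* (8 libraries each). In OIS-v-v against Grow-v-v the cells carried a pair of empty vectors (5 libraries each). The 4OHT dose and days of both comparisons were the same as in OIS against Grow. The labels give 6 biological replicates per condition and the methods 8, so that p-values measure the spread between these libraries.

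RAS sends growth signals through the kinases RAF, MEK and ERK, and a strong and lasting signal drives normal fibroblasts into senescence, a stable arrest of division. Senescent cells are known for a large lysosomal compartment, a weakened nuclear lamina, condensed heterochromatin, altered metabolism and a secretome of cytokines and proteases. Each of these has genes of its own, and the sections that follow take them by role, from the signalling pathway to the nucleus, the organelles, the cell surface and the transcription factors.

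Total counts ran from 13904974 to 21337019 in Grow and from 1903607 to 18475595 in OIS libraries, and the lowest was OIS replicate 4, which was the highest or lowest of its group in 63.7% of genes against 12.9% to 33.3% for each of the other 15 libraries. Without it 5289 genes were higher and 4880 lower in OIS, and 247 of 248 named genes kept their call. Levels are CPM (counts scaled to a common library size) on TMM-normalised library sizes, and they are shares of the RNA in a library, so that fewer cells of a kind and less RNA per cell cannot be told apart. *HRAS*, where reads of the endogenous gene and the fusion cannot be told apart, had a median of 1579 CPM (1533 to 1793) in Grow and 1542 CPM (1116 to 1759) in OIS (log2 fold change -0.09, standard error 0.07, adjusted p = 0.193). All 14 fibroblast markers were above the filter on low counts, and 12 of them fell and 1 rose, with a summed level of 54960 to 68540 CPM in Grow and 12730 to 15060 CPM in OIS. Epithelial markers summed to 75.9 to 102 CPM and 44.7 to 63.6 CPM, with 8 of 14 under 0.5 CPM in every library, *CDH1*, *SFTPC* and *NKX2-1* among them, and 4 of those at 0. Endothelial markers summed to 139 to 157 CPM and 78.5 to 101 CPM, most of it *TEK*, whose median went from 149 to 81.6 CPM. Of the other endothelial markers *TIE1* had medians of 0.524 and 9.43 CPM and rose by 4.06 on the log2 scale, with all 8 OIS libraries above all Grow libraries, *VWF* rose by 0.81, and 4 of 8 were under 0.5 CPM in every library (*CDH5*, *ERG*, *CLDN5* and *EMCN*). Leukocyte markers went in sum from between 17.9 and 23.8 CPM to between 50.2 and 63.8 CPM through *CD68* and *CSF1R*, while *PTPRC*, *CD3E*, *LYZ* and *TYROBP* stayed under 0.5 CPM in every library. The part of these shifts in the results was not tested.

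Most genes differed between the groups. Of 13304 genes tested, 9945 (74.8%) passed at an adjusted p under 0.05, 5164 (38.8%) higher and 4781 (35.9%) lower in OIS. With a fold change of at least 2 as well, 1094 genes (8.22%) were higher and 1468 (11%) lower. This balance turned to 1505 higher and 1168 lower with library sizes alone, and to 2800 and 2143 with no filter on low counts, while a filter of at least 10 counts in every library but OIS replicate 4 left 673 and 1189. The largest changes were mostly rises: at least 16-fold differences were found for 104 higher and 55 lower genes, and at least 32-fold for 64 and 13. The OIS libraries all lay above the Grow libraries for 2789 genes (21%) and below for 3076 (23.1%). These counts are the background for every gene group below, whose members should be read against 38.8% higher and 35.9% lower. The median log2 fold change over all genes was 0.03, and scaling by library sizes without TMM factors moved it by 0.189 and turned 66.2% rather than 51.9% of the calls into rises.

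By number, SASP and cell cycle genes made up a small part of the strong changes on the rising side, but the lists are short. The SASP list had 73 tested genes and the cell cycle list 392, of 13304 in all. Over all genes 8.22% were at least 2-fold higher and 11% lower. Of the 1094 genes at least 2-fold higher, 25 were on the SASP list and 6 on the cell cycle list, so that 1063 stood on neither. Of the 1468 at least 2-fold lower, 15 were SASP and 266 cell cycle genes, and 1187 stood on neither. Long noncoding RNAs were at least 2-fold higher for 18.6% of 533 and lower for 9.01%, whereas protein-coding genes were higher for 7.4% and lower for 11.4% of 11884.

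The 12 largest rises outside both lists held an antiprotease, a myeloid receptor, neuronal genes and noncoding transcripts, most of them near absent in growing cells. Only genes whose groups did not overlap were taken, so their separation was fixed by the choice. Those with a mean under 0.5 CPM in Grow passed the filter on low counts only through the OIS libraries. A rise was the only change that these could show. *PI3*, which encodes the elastase inhibitor elafin and lies on chromosome 20 of hg19 from 43803517 to 43805185, had at most 3 counts in any Grow library (0 to 0.164 CPM) and 17.4 to 28.5 CPM in OIS with a median of 22.5 CPM. Its OIS level was at least 131-fold above 3 counts per Grow library, and the fitted log2 fold change of 8.5 (standard error 0.23) depends on the prior count. A pair of long noncoding RNAs was also among these rises. *LINC02392* (chromosome 12, 90674671 to 90694117) had 0 to 0.327 CPM in Grow and 24.8 to 33.1 CPM in OIS (medians 0.138 and 28.6), a log2 fold change of 7.55 (standard error 0.19, adjusted p = 5.17e-24), and *LINC01705* (chromosome 1, 222215047 to 222238105) one of 6.53 (standard error 0.22). For both, all OIS libraries stood above all Grow libraries, as the choice required.

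*TREM1*, a receptor that amplifies inflammation in myeloid cells, went from a median of 0.188 CPM (0.0545 to 0.612) to 15.5 CPM (12.9 to 17.2), a log2 fold change of 6.06 (standard error 0.17, adjusted p = 9.12e-23). *MCTP1*, a calcium-binding membrane protein, rose from 0.39 CPM (0.153 to 0.674) to 29 CPM (24.9 to 33.3), by 6.24 on the log2 scale. The groups were apart for both genes, as the choice required, and both passed the filter on low counts only through the OIS libraries. *ARC*, an immediate early gene of synapses, rose by 5.8, *CBLN2*, a synaptic organiser, by 5.55, *GPNMB*, a glycoprotein of lysosomes and melanosomes, by 5.5, *ASB2*, a subunit of a ubiquitin ligase, by 5.48 and *PREX1*, an exchange factor for RAC, by 5.4. *SLC6A15*, a neutral amino acid transporter, went from 8.87 CPM (7.53 to 10.2) to 405 CPM (309 to 426), a log2 fold change of 5.43 (standard error 0.07). *RPLP0P2* also rose (6.59), but it is a pseudogene that shares sequence with *RPLP0*, which leaves its counts uncertain.

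The 12 largest falls outside both lists held matrix proteins, muscle actin genes, a hedgehog antagonist, enzymes and a receptor phosphatase. *COL15A1*, a collagen of basement membranes (chromosome 9, 101705461 to 101833069), fell from 117 CPM (107 to 136) to 1.68 CPM (0.993 to 2.29), a log2 fold change of -6.16 (standard error 0.1, adjusted p = 6.16e-28). *LMOD1*, a muscle actin nucleator, went from 67.1 CPM (60.5 to 75.6) to 1.64 CPM (0.616 to 2.57), and *GALNT5*, which starts O-linked sugar chains, from 609 CPM (522 to 660) to 30.7 CPM (26.9 to 33.3). No OIS library reached a Grow library for any of these, which the choice of the falls required as well. *HHIP*, a decoy receptor of hedgehog ligands, had a log2 fold change of -5.87, *ACTC1*, cardiac actin, of -5.74, *SULF1*, an editor of heparan sulphate, of -5.32, *NTN4*, a netrin, of -4.97, *PODN*, a small leucine-rich proteoglycan, of -4.88 and *PTPRB*, a receptor phosphatase, of -4.86. *ELOVL2*, which elongates polyunsaturated fatty acids, had -4.84, *ITGBL1* -4.55 and *ADAMTSL1*, a matrix protein, -4.24. *ACTC1* varied widely within Grow, from 7.02 to 44 CPM. Smooth muscle markers summed to 1659 to 1945 CPM in Grow and 339 to 461 CPM in OIS. *TAGLN*, *ACTA2* and *CNN1* fell (log2 fold changes of -3.96, -3.66 and -3.08), *SMTN* rose by 0.28, and *MYH11* and *DES* were under the filter.

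**Figure D1:**
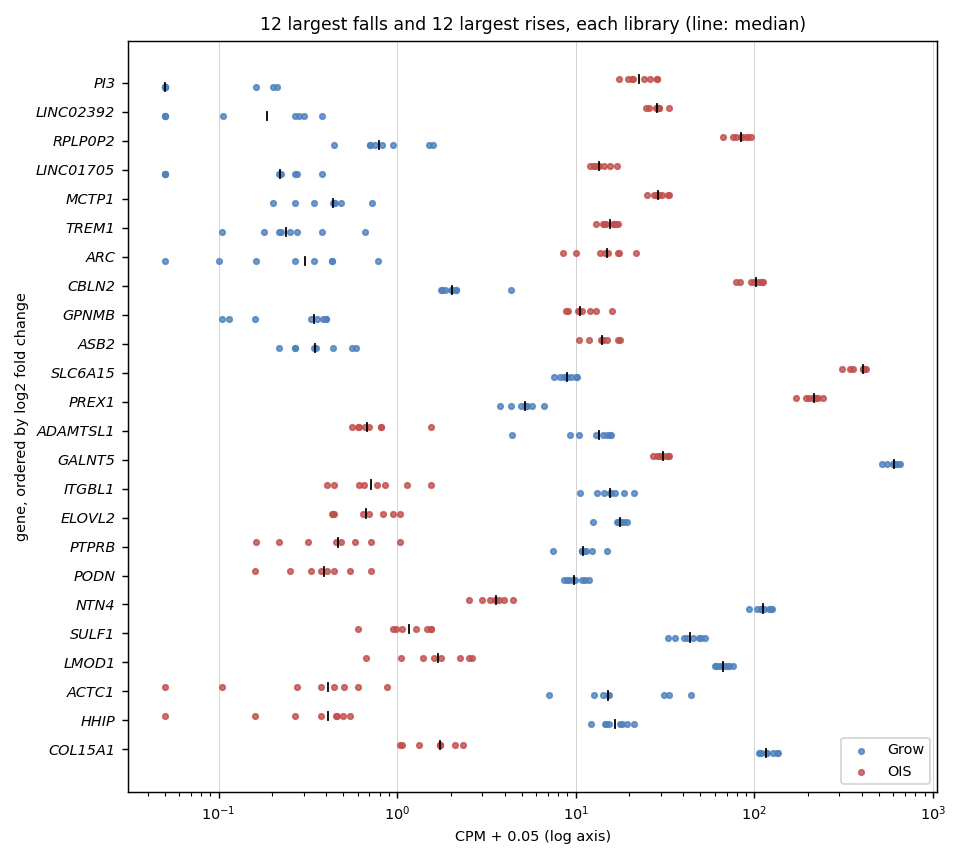
Level of each of the 12 largest rises and 12 largest falls outside the SASP and cell cycle lists, as CPM + 0.05 on a log axis, with 1 point per library for 8 Grow and 8 OIS libraries and a line at each median. The groups are apart for every gene because only such genes were taken. *PI3* had at most 0.164 CPM in Grow against 17.4 or more in OIS, and *COL15A1* had 107 or more against at most 2.29.

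Some genes crossed from near silence to a clear level or back. From a mean under 0.5 CPM in one group to at least 5 CPM in the other, 28 genes were switched on, 24 of them outside both lists, and 17 were switched off, 14 of them outside both lists. Beside those above, *IQGAP2*, a scaffold of the actin cytoskeleton, rose from a median of 0.379 CPM to 13.9 CPM. Off-going genes were *PDE7B*, a cyclic AMP phosphodiesterase (7.64 to 0.306 CPM), *TMEM178B* (8.06 to 0.258 CPM), *NRXN3*, a neurexin (6.83 to 0.225 CPM) and *LINC00702* (7.15 to 0.291 CPM). All of these passed, as the choice required, and their groups did not overlap. With a mean under 0.5 CPM in 1 group, they could pass the filter on low counts only through the other group. A change towards that group was then the only one they could show.

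**Figure D2:**
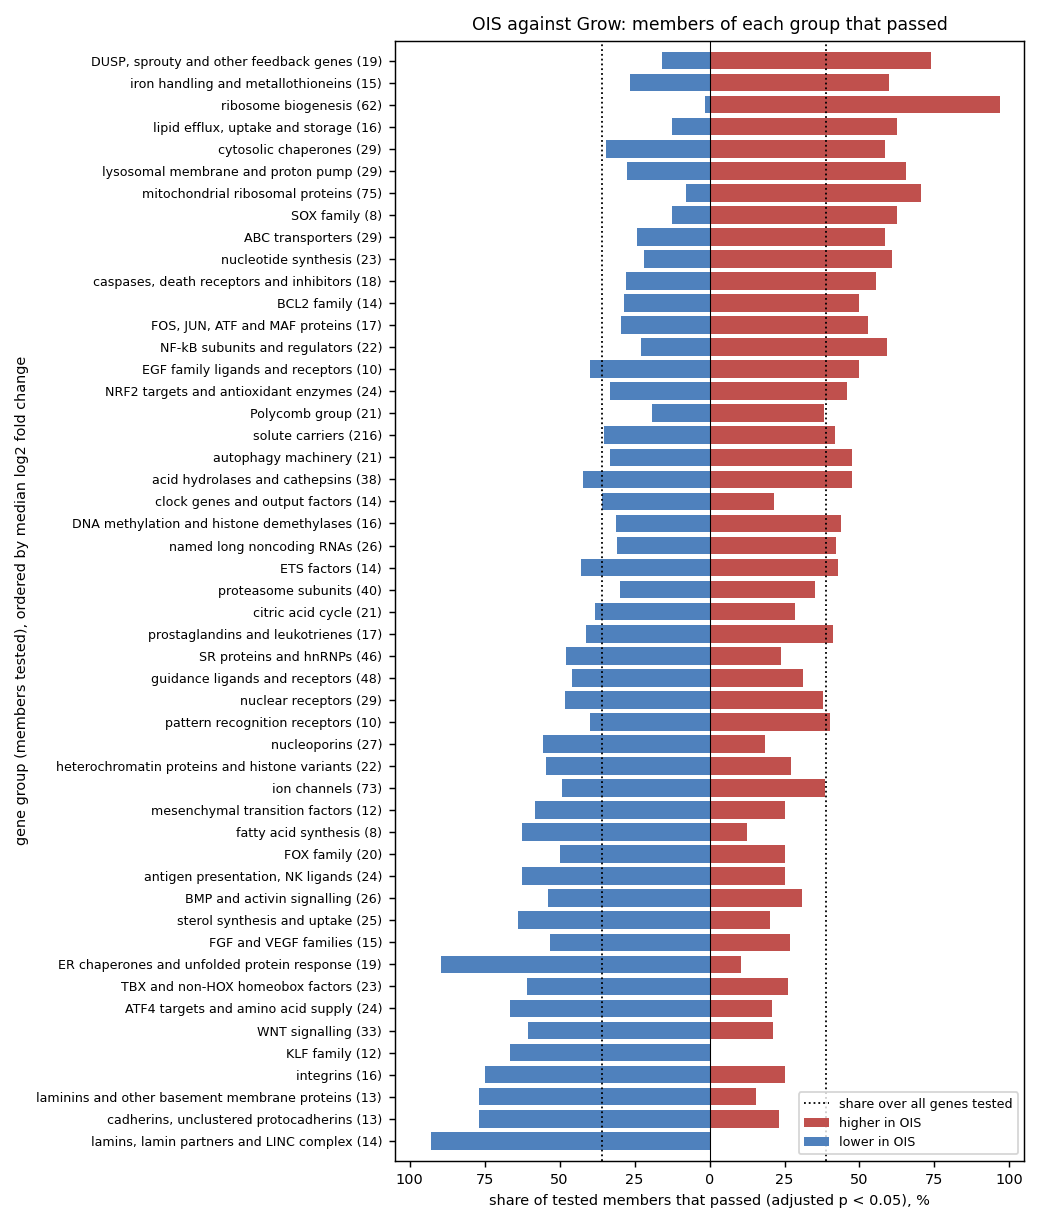
Share of the tested members of each gene group that passed higher or lower in OIS against Grow (adjusted p under 0.05), with dotted lines at the background of 38.8% and 35.9% over all 13304 genes tested. Groups are ordered by median log2 fold change, and the number of tested members stands in brackets. Ribosome biogenesis factors sit at the higher end with 60 of 62 members, and lamina genes at the lower end with 13 of 14. Library sizes alone turn the sign of 12 of the group medians, those of splicing and nucleoporin genes among them.

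Genes that ERK signalling induces to restrain itself were higher. Of 19 tested phosphatases, sprouty proteins and other feedback genes, 14 rose and 3 fell, with a median log2 fold change of 0.98 against 0.03 over all genes. *DUSP6*, a phosphatase that inactivates ERK (chromosome 12, 89741009 to 89746274), went from 114 CPM (104 to 130) to 614 CPM (570 to 629), a log2 fold change of 2.41 (standard error 0.05, adjusted p = 6.12e-26). *SPRY2*, an inhibitor of receptor signalling to RAS, rose from 52.4 CPM (48.7 to 59.4) to 223 CPM (207 to 238), and *DUSP4*, a nuclear phosphatase, from 10.9 CPM (8.9 to 16.9) to 80.6 CPM (64.6 to 88.4). The groups were apart for all of these. *IER3*, an early response gene, rose by 2.43, while *DUSP7* fell by 0.29, which did not pass with library sizes alone (-0.1). The ETS factors that carry the signal into the nucleus were split, with 6 higher and 6 lower of 14: *ETV1* rose by 0.71 and *ETS2* by 0.5, *ETV5* fell by 0.66 and *ELF4* by 1.1.

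Of 17 AP-1 proteins, which pair as FOS, JUN, ATF and MAF dimers, 9 rose and 5 fell. *JUN* rose from 98.2 CPM (82.4 to 110) to 211 CPM (180 to 229), a log2 fold change of 1.12, and *FOSB* by 2.42. *FOSL1* fell from 172 CPM (166 to 204) to 115 CPM (108 to 130), and *FOSL2* and *JDP2*, a repressor of AP-1, fell by 1 and 1.7. Members of this family thus moved both ways at levels where the groups did not overlap.

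Genes of the EGF family, ligands, receptors and sheddases, moved both ways, with 5 higher and 4 lower of 10 tested. *EREG*, epiregulin, went from 55.4 CPM (38.2 to 85.2) to 708 CPM (655 to 837), a log2 fold change of 3.67, and *NRG1*, neuregulin 1, from 77.9 CPM (46.9 to 120) to 551 CPM (519 to 582), one of 2.81. The ligand *EGF* fell from 3.88 CPM (2.75 to 5.6) to 1.04 CPM (0.646 to 2.98), by 1.93 on the log2 scale. The receptor *EGFR* rose by 0.25, *ERBB2* fell by 1.57 and the sheddase *ADAM10* by 0.91, while *HBEGF* had a log2 fold change of 0.03 (adjusted p = 0.679). In OIS-v-v cells *HBEGF* rose, by 1.63 on the log2 scale (adjusted p = 3.31e-05). Among 15 FGF and VEGF family genes 4 rose and 8 fell: *VEGFA* rose by 1.54 and *FGF2* by 0.83, and *FGF1* and *FGF7*, a factor that fibroblasts send to epithelia, fell (-2.88 and -2.85).

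BMP, activin and WNT genes were lower for the larger part. Of 26 BMP and activin genes 8 rose and 14 fell. *BMP2* rose from 218 CPM (184 to 255) to 804 CPM (749 to 819) and *GDF15*, a distant relative secreted under stress, from 22.9 CPM (19.1 to 33.7) to 286 CPM (207 to 321). The activin antagonist *FST* fell from 90.8 CPM (67.1 to 119) to 11.6 CPM (9.12 to 12.9), *FSTL3* had a log2 fold change of -2.37 and the BMP target *ID1* one of -0.31, which did not pass with library sizes alone (-0.12). Of 33 WNT genes 7 rose and 20 fell, with a median of -0.62. The ligand *WNT7B* (chromosome 22, 46316242 to 46373009) rose from 8.31 CPM (7.58 to 11.2) to 138 CPM (102 to 146), a log2 fold change of 3.91 (standard error 0.08, adjusted p = 5.25e-26), and *WNT9A* rose by 2.24. The receptor *FZD2* fell from 45.8 CPM (42.5 to 56) to 5.17 CPM (4.23 to 6.85), and the secreted antagonist *DKK1* from 46.8 CPM (34.9 to 73.3) to 5.75 CPM (4.14 to 6.71). *WNT5A* was at 1911 and 1821 CPM (adjusted p = 0.149), with a log2 fold change of -0.07 that was 0.12 with library sizes alone.

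Almost every gene of the nuclear lamina fell. The lamina is the mesh of lamins under the nuclear envelope, and its loss is a known mark of senescence. Of 14 tested genes 13 fell and none rose, with a median of -0.92, and 4 of the 13 (*LMNB1*, *LMNB2*, *LBR* and *TMPO*) are also on the cell cycle list. *LMNB1*, lamin B1 (chromosome 5, 126112315 to 126172712), went from 84 CPM (75.2 to 95.1) to 9.99 CPM (8.2 to 11.3), a log2 fold change of -3.12 (standard error 0.07, adjusted p = 4.14e-25). *LBR*, the lamin B receptor, fell from 47.2 CPM (44.6 to 50.2) to 14.9 CPM (12.6 to 16.8), and *LMNA*, which encodes lamins A and C, from 680 CPM (639 to 783) to 350 CPM (277 to 394). No OIS library reached the Grow range for these. Nucleoporins were lower for 15 and higher for 5 of 27, with a median of -0.16 that was 0.03 with library sizes alone, among them *NDC1*, which anchors the pore in the membrane (-1.41), and *NUP188* (0.48).

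Heterochromatin proteins and histone variants fell in 12 and rose in 6 of 22 cases, with a median of -0.16 that was 0.03 with library sizes alone. *CBX5*, heterochromatin protein 1 alpha, fell from 330 CPM (276 to 368) to 175 CPM (150 to 194). The replacement histones *H2AZ1* and *H2AZ2*, which share sequence, fell by 1.29 and 1, and *H2AJ* by 0.5. *H2AZ1*, and *EZH2* and *DNMT1* below, are also on the cell cycle list. Of 21 Polycomb genes 8 rose and 4 fell: *EZH2*, the enzyme that methylates histone H3 at lysine 27, fell from 28.1 CPM (26.1 to 30.7) to 7.32 CPM (6.09 to 8.14), a log2 fold change of -1.98, whereas *JARID2*, an accessory subunit, rose by 1.11. Among 16 genes of DNA methylation and histone demethylation, 7 rose and 5 fell. *KDM6B*, which removes the mark that EZH2 sets, rose from 23.1 CPM (18.5 to 25.5) to 61.8 CPM (38.7 to 73.4), and the maintenance methylase *DNMT1* fell by 0.45.

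Ribosome biogenesis genes were higher almost without exception. The list holds the factors that build ribosomes in the nucleolus and the subunits of RNA polymerase I, and 60 of its 62 genes rose while 1 fell, with a median of 0.72. *NCL*, nucleolin, went from 623 CPM (552 to 657) to 909 CPM (837 to 1113), a log2 fold change of 0.59 (standard error 0.05). *RRP9*, a subunit of a small nucleolar particle, rose from 16.8 CPM (15.9 to 18.7) to 48.8 CPM (38.3 to 54.6), and *MYC*, the transcription factor that drives this programme, from 6.23 CPM (3.93 to 7.02) to 16.1 CPM (9.44 to 20.1). Every OIS library was above every Grow library for these. The fall was that of *UBTF*, a factor of ribosomal DNA transcription (-0.35). Of 11 genes at least 2-fold higher, *POLR1C* and *POLR1B*, subunits of the polymerases, rose by 1.41 and 1.33. Mitochondrial ribosomal proteins were also higher, in 53 of 75 cases against 6 lower (median 0.33), led by *MRPL36* (1.07).

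Nucleotide synthesis genes rose in 14 and fell in 5 of 23 cases (median 0.27). *IMPDH2*, the key enzyme of guanine nucleotide synthesis, rose from 117 CPM (107 to 123) to 243 CPM (219 to 270), and *PPAT*, which commits carbon to purines, by 0.86. *SHMT1*, a supplier of folate units, fell by 0.8. Splicing factors changed little in size: 11 rose and 22 fell of 46, none by 2-fold, from -0.62 (*HNRNPA2B1*) to 0.56 (*U2AF2*), with a median of -0.07. With library sizes alone 22 rose and 9 fell, and the median was 0.12. In the other cells nucleotide synthesis genes rose in 13 and fell in 8 of 23 cases with shA1 (median 0.16). They rose in 4 and fell in 6 of 23 cases in OIS-v-v cells (median -0.18), or 5 and 11 with the replicate number as a block.

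**Figure D3:**
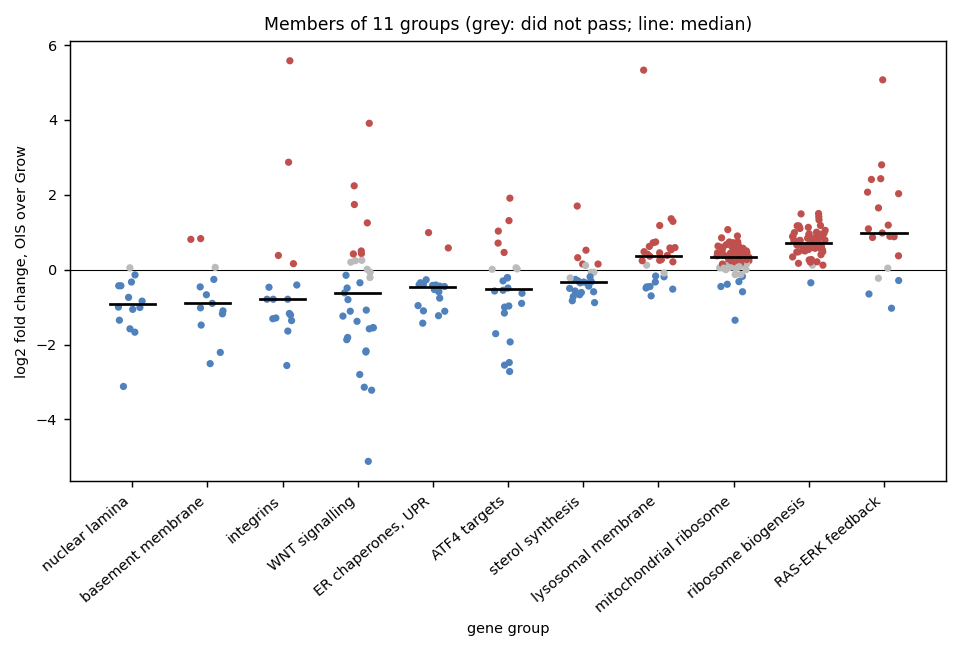
Log2 fold change of OIS against Grow for each tested member of 11 gene groups, with 1 point per gene, red or blue where it passed higher or lower and grey where it did not, and a line at each group's median. Ribosome biogenesis factors lie between -0.35 and 1.5 with a median of 0.72, lamina genes between -3.12 and 0.05 with a median of -0.92.

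In OIS against Grow, genes of the lysosomal membrane and its proton pump were higher more often than those of the lysosomal enzymes. Of 29 membrane and pump genes 19 rose and 8 fell (median 0.36), and of 38 acid hydrolases and cathepsins 18 rose and 16 fell (median 0.08). *ATP6V0D2*, a pump subunit known from osteoclasts, went from 0.525 CPM (0.151 to 0.981) to 20.2 CPM (16.4 to 23.9), a log2 fold change of 5.33 (standard error 0.16, adjusted p = 4.25e-22). *CTNS*, the cystine exporter, rose from 20.6 CPM (15.8 to 21.5) to 51.1 CPM (44.5 to 56.9), and *CTSS*, cathepsin S, from 32.5 CPM (24.9 to 38.7) to 163 CPM (144 to 196). All of these were apart. *GLB1*, which encodes the beta-galactosidase used to stain senescent cells, fell from 111 CPM (106 to 117) to 83.8 CPM (61.6 to 92.6), a log2 fold change of -0.44 (standard error 0.05, adjusted p = 9.2e-09), and the membrane protein *LAMP1* from 401 CPM (370 to 414) to 278 CPM (264 to 292). *CTSC* fell by 1.28, while *CTSD*, 43.1% of whose exons overlap another gene, had a log2 fold change of 0.08 (adjusted p = 0.366). In OIS-v-v against Grow-v-v cells *GLB1* had a log2 fold change of 0.22 (adjusted p = 0.194), *LAMP1* one of 0.12 (adjusted p = 0.463) and *CTSD* one of 0.69 (adjusted p = 0.0032). There, without a replicate block as for all counts in these cells, 20 of 30 membrane and pump genes rose and none fell (median 0.62). Of 38 hydrolases and cathepsins 21 rose and 6 fell in OIS-v-v cells (median 0.42), against 22.7% and 23.2% over all genes. With shA1, 21 of 29 membrane and pump genes rose and 6 fell (median 0.34), and 18 of 38 hydrolases and cathepsins rose and 13 fell (median 0.11).

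TFEB family factors bind the letters TCACGTG upstream of many lysosomal genes. In the RefSeq promoters of GRCh38.p14, from 250 bases before to 50 after each start, these letters stood on either strand in 3.82% of all 27305. Only 44 of 68 lysosomal list members had a promoter in the table, fewer than 80%, so no share is given for the list. The motif's letters overlap the shared core CACGTG of other basic helix-loop-helix factors. The promoters of *LAMP1*, which fell, and of *MCOLN1*, a calcium channel, and *GAA*, acid glucosidase, which rose by 0.62 and 0.57, are shown because each holds several matches, and the last pair was chosen after its values were seen. Each line gives the 250 bases before the start, 5′ to 3′ on the strand of the gene, with matches on either strand in capitals: *LAMP1* at chr13:113296989-113297238 (+ strand), *MCOLN1* at chr19:7522374-7522623 (+ strand) and *GAA* at chr17:80101331-80101580 (+ strand).
LAMP1: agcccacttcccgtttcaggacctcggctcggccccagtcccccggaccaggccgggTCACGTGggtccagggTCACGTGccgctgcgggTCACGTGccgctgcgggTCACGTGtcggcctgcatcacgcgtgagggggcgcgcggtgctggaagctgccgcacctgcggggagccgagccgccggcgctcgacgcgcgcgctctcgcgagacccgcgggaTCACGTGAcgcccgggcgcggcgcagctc
MCOLN1: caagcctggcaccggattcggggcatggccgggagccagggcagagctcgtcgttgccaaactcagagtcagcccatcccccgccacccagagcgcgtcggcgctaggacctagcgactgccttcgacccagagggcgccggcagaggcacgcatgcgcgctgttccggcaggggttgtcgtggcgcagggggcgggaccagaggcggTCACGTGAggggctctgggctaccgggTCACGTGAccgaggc
GAA: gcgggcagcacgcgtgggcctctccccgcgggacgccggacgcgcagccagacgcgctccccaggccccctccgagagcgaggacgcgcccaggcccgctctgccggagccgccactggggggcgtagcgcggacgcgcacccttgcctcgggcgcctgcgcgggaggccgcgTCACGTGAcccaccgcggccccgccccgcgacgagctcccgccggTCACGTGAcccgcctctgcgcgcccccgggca
Within these stretches *LAMP1* had 5 separate matches and the other genes 2 each. A match is a description of the letters and does not show that a factor binds.

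Autophagy genes rose in 10 and fell in 7 of 21 cases. *SQSTM1*, the p62 receptor for cargo, went from 204 CPM (186 to 248) to 530 CPM (426 to 579), a log2 fold change of 1.31, and *GABARAPL1*, a membrane tag, fell from 125 CPM (96.9 to 158) to 45.7 CPM (43.7 to 51.2).

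Amino acid supply and the chaperones of the endoplasmic reticulum were lower. Of 24 ATF4 targets and amino acid genes 5 rose and 16 fell (median -0.52), and of 19 chaperones and unfolded protein response genes 2 rose and 17 fell (median -0.45). *ATF4* itself, the factor of the amino acid response, fell from 135 CPM (128 to 145) to 70.1 CPM (63.1 to 74.9). *HSP90B1* fell from 2735 CPM (2550 to 2869) to 1002 CPM (846 to 1269), and *HSPA5*, the chaperone BiP, from 1646 CPM (1594 to 1727) to 1239 CPM (1138 to 1460). The groups were apart for these. *DDIT3*, the stress factor CHOP, went the other way, from 7.21 CPM (4.59 to 8.92) to 25.2 CPM (23.4 to 33.4), as did *TRIB3* (1.31), the kinase-like inhibitor it induces, and *ERN1*, the stress sensor IRE1 (0.99). *ALDH1L2*, *SLC1A4* and *CALR* fell by 2.72, 2.55 and 1.23.

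These chaperone genes had smaller falls or none in the other cells. *HSP90B1* had a log2 fold change of -0.74 in OIS-shA1 and -0.13 in OIS-v-v cells (adjusted p = 0.489), *CALR* -0.66 and -0.16 (adjusted p = 0.368), and *HSPA5* 0.14 and 0.04 (adjusted p = 0.838). Of the 19 genes of this group, 10 fell and 4 rose with shA1, and 2 fell and 2 rose in OIS-v-v cells. Of the 24 ATF4 targets and amino acid genes 10 rose and 8 fell with shA1 (median 0.16), and in OIS-v-v cells 2 rose and 13 fell (median -0.32). The interaction of RAS with shA1 was 0.7 (adjusted p = 1.55e-08) for *HSP90B1*, 0.59 (adjusted p = 6.18e-10) for *CALR* and 0.56 (adjusted p = 4.23e-07) for *HSPA5*. The difference from OIS-v-v cells was not tested.

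The element TGATGNAA, read by ATF4 with C/EBP partners, was found on either strand in 5 of 39 promoters of the amino acid and stress genes (12.8%) and in 3.67% of all, and overlaps no other motif searched. *ASNS*, asparagine synthetase and a classic ATF4 target, fell from 55.8 CPM (39.9 to 64.1) to 38.1 CPM (31.3 to 51.1), a log2 fold change of -0.49 (standard error 0.1), with an overlap between the groups. Its 250 upstream bases, at chr7:97872409-97872658 (- strand) of GRCh38.p14, hold 1 match, shown in capitals because the gene is the standard example of the element.
ASNS: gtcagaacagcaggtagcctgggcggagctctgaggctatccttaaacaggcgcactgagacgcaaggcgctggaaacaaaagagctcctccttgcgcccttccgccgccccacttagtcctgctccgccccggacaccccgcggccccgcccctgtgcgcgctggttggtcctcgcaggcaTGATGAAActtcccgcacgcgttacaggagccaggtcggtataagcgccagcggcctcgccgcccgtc
The cyclic AMP element TGACGTCA stood in 3 of 28 promoters of the ERK feedback group (10.7%) against 1.98% of all, and in none of those whose gene rose. For the AP-1 letters TGANTCA and the sterol letters TCACNCCAC, fewer than 80% of the list members had a promoter as well, so no share is given.

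In OIS against Grow sterol synthesis was lower and lipid storage higher, and the fall of the sterol genes was not seen in OIS-v-v cells. Of 25 sterol synthesis and uptake genes 5 rose and 16 fell (median -0.32). *HMGCS1*, an early enzyme, fell by 0.32, which did not pass with library sizes alone (-0.13). Of 16 genes of lipid efflux, uptake and storage 10 rose and 2 fell (1 without Grow replicate 4, OIS replicate 3 or OIS replicate 6): *PLIN2*, the coat of lipid droplets, rose from 73.3 CPM (68.8 to 81.9) to 186 CPM (176 to 198), *ANGPTL4*, a lipase inhibitor, from 13.1 CPM (11.1 to 16.1) to 93 CPM (71.5 to 111) and the cholesterol exporter *ABCA1* by 0.89. Among 8 fatty acid synthesis genes 1 rose and 5 fell. The riser was *FASN* (0.47), and the desaturases *FADS2* and *SCD* fell by 1.86 and 0.47. Of the 25 sterol genes 6 rose and 11 fell with shA1 (median -0.01), and 4 rose and 3 fell in OIS-v-v cells (median 0.16). The lipid efflux, uptake and storage genes rose in 12 and 11 of 17 cases there, with 2 and 1 lower.

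Iron and redox genes changed in both directions. Of 15 iron and metallothionein genes 9 rose and 4 fell (median 0.74). *FTL*, the ferritin light chain, went from 1219 CPM (1124 to 1526) to 3492 CPM (2856 to 3931), a log2 fold change of 1.42, and *TFRC*, the transferrin receptor, from 457 CPM (371 to 484) to 879 CPM (823 to 966), while *FTH1* had 0.11 (adjusted p = 0.187). Ferritin has many pseudogenes, and metallothioneins are near-identical, which leaves these counts uncertain: *MT1E* fell by 2.75 and *MT2A* had -0.08 (adjusted p = 0.232), which was 0.11 with library sizes alone. Among 24 NRF2 targets and antioxidant enzymes 11 rose and 8 fell, with *HMOX1*, which degrades haem, from 14.4 CPM (10.5 to 21.3) to 37.3 CPM (30.6 to 43), and *NQO1* from 253 CPM (227 to 307) to 167 CPM (132 to 204). *GPX8* fell by 1.39. Of 21 citric acid cycle genes 6 rose and 8 fell, where 13 rose with library sizes alone, with *IDH2* falling by 1.4 and *PC*, pyruvate carboxylase, by 1.67.

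Proteasome subunits were close to the background, with 14 higher and 12 lower of 40. With library sizes alone 25 were higher, and without Grow replicate 2, 6 or 7 it was 9, 9 or 8. The immunoproteasome subunit *PSMB8* and the activator *PSME2* rose by 1.12 and 0.72. Cytosolic chaperones rose in 17 and fell in 10 of 29 cases, with *HSPA4L* rising by 1.24 and the small heat shock proteins *HSPB1* and *HSPB8* falling by 1.57 and 1.49. They rose in 14 and fell in 11 of 28 cases with shA1. In OIS-v-v cells 3 rose and 6 fell of 28 (median 0.02), or 6 and 9 with the replicate number as a block. There *HSPB1* had a log2 fold change of -1.5 and *HSPB8* one of -0.46 (adjusted p = 0.0764), which was -0.51 with the block (adjusted p = 0.0171).

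Eicosanoid genes rose in 7 and fell in 7 of 17 cases. *PTGS2*, the inducible cyclooxygenase, rose from 204 CPM (87 to 410) to 1246 CPM (1143 to 1468), a log2 fold change of 2.53, and *PLA2G4A*, which frees arachidonate, from 11.9 CPM (8.59 to 13.4) to 47.6 CPM (43.5 to 55.1), whereas the constitutive *PTGS1* fell from 252 CPM (186 to 306) to 97.3 CPM (92.4 to 100). The eicosanoid median of -0.07 was 0.12 with library sizes alone.

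Immune surface genes fell in 15 and rose in 6 of 24 cases. *CD274*, PD-L1, fell from 79.3 CPM (70.9 to 89.2) to 28.3 CPM (24.8 to 33.5), *PDCD1LG2*, PD-L2, by 1.55 and *B2M*, the light chain of class I molecules, by 0.46. *ULBP1*, a ligand for the natural killer receptor NKG2D, rose from 2.46 CPM (2.02 to 2.68) to 8.71 CPM (6.78 to 9.64), and *DPP4*, a surface peptidase, by 1.41. *ICAM1* had -0.08 (adjusted p = 0.272), which was 0.11 with library sizes alone. Among 10 pattern recognition genes 4 rose and 4 fell, with *IFI16*, a DNA sensor, at 56 CPM (49.8 to 60) and 191 CPM (153 to 246), and *STING1*, the hub behind such sensors, falling by 0.96. Of 22 NF-kB genes 13 rose and 5 fell, *NFKBIA* and *TNFAIP3*, which end the signal, by 0.48 and 0.46 upwards. With shA1 6 of these 22 rose and 10 fell (median -0.11). In OIS-v-v cells 6 rose and 1 fell, or 2 with the replicate number as a block. Immune surface genes rose in 6 and fell in 15 of 24 cases with shA1, but rose in 8 and fell in 5 of 23 in OIS-v-v cells (median 0.18). In the latter *ICAM1* rose by 1.35 (adjusted p = 0.000756).

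The BCL2 family holds inhibitors and promoters of cell death, and 7 of its 14 tested genes rose and 4 fell. *BCL2A1*, an inducible inhibitor of apoptosis, went from 1.26 CPM (0.786 to 2.52) to 50.9 CPM (40.6 to 64.1), a log2 fold change of 5.13 (standard error 0.13, adjusted p = 1.33e-23), and *MCL1* from 576 CPM (540 to 605) to 1287 CPM (1210 to 1441). The inhibitor *BCL2* fell by 1.68, the promoter *BAX* rose by 0.48, *PMAIP1*, the death-promoting protein NOXA, fell by 0.89, and the inhibitor *BCL2L1* had 0.01 (adjusted p = 0.932). Of 18 caspases, death receptors and inhibitors 10 rose and 5 fell, with *CASP8* at 1.24, the decoy receptor *TNFRSF10D* at 1.2 and *FAS* falling by 0.47.

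Adhesion and basement membrane genes were mostly lower. Integrins, the receptors for matrix, fell in 12 and rose in 4 of 16 cases (median -0.79), cadherins in 10 and 3 of 13 (-0.92) and basement membrane proteins in 10 and 2 of 13 (-0.9). *ITGA8* fell from 73.3 CPM (46 to 81.7) to 12.3 CPM (7.51 to 18.4), *CDH4* from 18.2 CPM (16.8 to 21.1) to 1.42 CPM (0.704 to 2.02) and *HSPG2*, the proteoglycan perlecan, from 324 CPM (285 to 404) to 55.9 CPM (28.3 to 74.6). The laminin chain *LAMB3* rose by 0.81 and *PCDH9* by 2.58. In OIS-v-v cells integrins rose in 2 and fell in 3 of 16 cases (4 and 2 with the replicate number as a block), and *ITGA8* had 0.05 (adjusted p = 0.918). Basement membrane proteins there rose in 4 and fell in 6 of 13 cases (median -0.14), and cadherins in 2 and 8 of 13 (-1.1). *LAMB3* went the other way there, with a log2 fold change of -0.38 (adjusted p = 0.0119), and *PCDH9* rose by 2.

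Axon guidance genes split (15 higher, 22 lower of 48, median -0.11, which was 0.08 with library sizes alone). *ROBO4*, a receptor known from blood vessels, rose from 5.64 CPM (4.81 to 7.3) to 39.6 CPM (27.8 to 47.1) and the ephrin *EFNA5* by 2.44, and *ROBO2* fell by 2.88. Of 73 ion channel genes 28 rose and 36 fell: the GABA receptor subunit *GABRA2* rose from 9.34 CPM (7.38 to 11.1) to 169 CPM (130 to 186), a log2 fold change of 4.13, and the glutamate receptor subunit *GRIK2* fell from 33.6 CPM (23.2 to 39.5) to 2.38 CPM (2.14 to 3.31). Of 216 solute carriers 90 rose and 76 fell, among them the organic anion carrier *SLCO4A1* (3.24) and the sodium-calcium exchanger *SLC8A1* (-3.3), and of 29 ABC transporters 17 rose and 7 fell. The ion channel median of -0.17 was 0.02 with library sizes alone.

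Among transcription factors the KLF family was lower, with 8 of its 12 tested genes falling and none rising (median -0.69). With library sizes alone, upper-quartile factors or either other filter on low counts 1 to 3 of its genes rose, and 1 rose without OIS replicate 2, 3 or 4. *KLF2*, which keeps endothelium and lymphocytes quiescent, went from 33.4 CPM (30.8 to 37.3) to 2.64 CPM (1.57 to 3.97), a log2 fold change of -3.76 (standard error 0.12), *KLF6* from 257 CPM (242 to 268) to 88.5 CPM (82.2 to 92.3) and *KLF4* fell by 1.47. The FOX family had 5 higher and 10 lower of 20, with *FOXQ1* rising from 1.68 CPM (0.994 to 2.45) to 31.2 CPM (21.9 to 42.1). Nuclear receptors (11 higher, 14 lower of 29) held opposite changes within one subfamily, as *NR4A3* rose by 1.46 while *NR4A1* and *NR4A2* fell by 1.27 and 2.45. The nuclear receptor median of -0.11 was 0.08 with library sizes alone. *TCF21*, a factor of lung and other fibroblasts, fell from 36.6 CPM (32.8 to 40.3) to 3.29 CPM (2.02 to 3.99), and *MEIS1*, a homeobox factor, fell by 2.19. In the SOX family 5 genes rose and 1 fell of 8 tested, with log2 fold changes from -0.5 to 0.98. *SOX9* and *SOX5* were the largest rises (0.94 and 0.98).

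TBX and homeobox factors outside the HOX clusters fell in 14 and rose in 6 of 23 cases, with *TBX3* (0.72) among those that rose. Mesenchymal transition factors fell in 7 and rose in 3 of 12 (median -0.17, which was 0.02 with library sizes alone). *ZEB1* rose by 0.3 and *TCF4* fell by 1.25. Clock genes (3 higher, 5 lower of 14, and 8 higher with library sizes alone) included *BHLHE40*, a repressor of the clock, at 105 CPM (98 to 113) and 196 CPM (181 to 215), and *PER3*, which fell by 1.16. Of 26 named long noncoding RNAs 11 rose and 8 fell, with *NEAT1*, the scaffold of paraspeckles, rising by 0.64, *PVT1* by 0.99 and *MIR100HG* falling by 1.72.

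The changes were not spread evenly over the genome. On chromosomes 19 and 16, 5.51% and 6.6% of tested genes were at least 2-fold lower, whereas 16.5% were on chromosome 18, 16.4% on chromosome 4 and 16.1% on chromosome 13, against 11% over all. Of 4 classes of equal size by gene span, the shortest (up to 11705 bases) had 11% of its genes at least 2-fold higher and 8.75% lower, and the longest 7.76% and 14.4%. Chromosomes differ in gene length and density, and no test was made of these shares.

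Some neighbours among the tested genes changed in the same direction. There were 17 runs of at least 4 tested neighbours that were all at least 2-fold higher or all at least 2-fold lower. Of these 11 were higher and 6 lower, with 79 genes, and 11 runs held no SASP or cell cycle gene. Genes under the filter on low counts were skipped, so that members of a run need not be adjacent. Over all genes 8.22% were at least 2-fold higher and 11% lower, and the number of runs was not tested against these shares. The run with the highest fold changes lay in the epidermal differentiation cluster on chromosome 1 of hg19, from 152551857 to 152884360, and held *LCE3D*, *LCE2C*, *LCE2A*, *LCE1F* and *IVL*, which encode envelope proteins of cornified skin cells. *LCE3D* had no count in any Grow library and 2.75 to 4.09 CPM in OIS with a median of 3.28 CPM, at least 19.1-fold above 3 counts per library. *IVL*, involucrin, had 0 to 0.168 CPM in Grow and 4.47 to 8.3 CPM in OIS with a median of 6.62 CPM, and *LCE1F* 0 to 0.0547 CPM and 2.93 to 5.83 CPM. The Grow libraries held 1 to 7 counts in all for each of the 4 genes other than *LCE3D*, so no fold is given, and *LCE* genes are paralogs that share sequence. All genes of this run passed the filter only through the OIS libraries, so that a rise was the only change they could show. *CLEC2B*, a lectin-like ligand in a run on chromosome 12 with *CLEC2D* and *CD69*, rose from 1.56 CPM (1.29 to 2.06) to 15.7 CPM (13.1 to 20.9). The clustered protocadherins *PCDHB10* and *PCDHB15*, in a run of 4 on chromosome 5, fell by 1.9 and 1.36, and are paralogs as well.

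**Figure D4:**
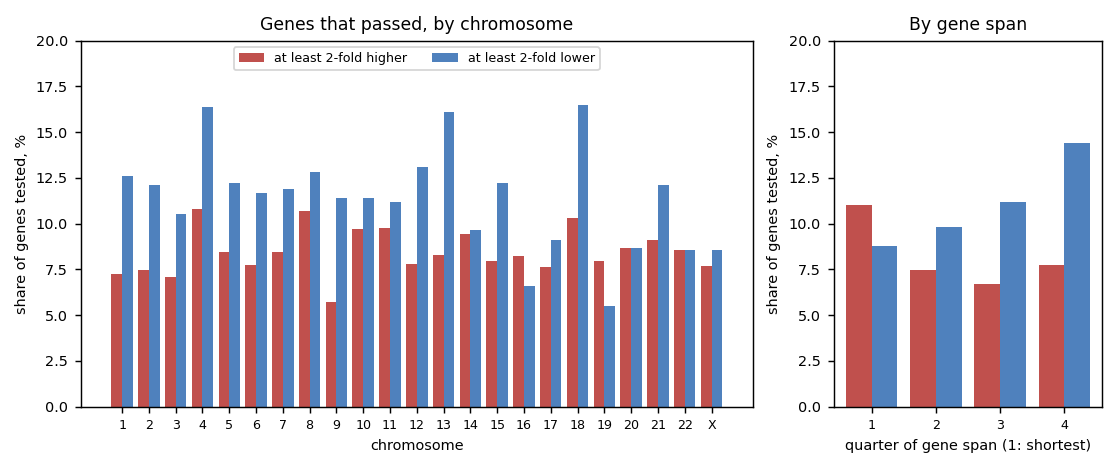
Share of tested genes on each chromosome that were at least 2-fold higher or lower in OIS (left) and in 4 classes of equal size by gene span, from shortest to longest (right), in percent. Falls range from 5.51% on chromosome 19 to 16.5% on chromosome 18, and from 8.75% in the shortest to 14.4% in the longest class.

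The response was set beside the same contrast in cells with other vectors, whose libraries are separate. In OIS-shA1 against Grow-shA1, 37.1% of genes were higher and 36% lower, and of the genes at least 2-fold changed in OIS and tested there, 978 of 1024 (95.5%) were also higher and 1382 of 1407 (98.2%) also lower. In OIS-v-v against Grow-v-v, with 22.7% higher and 23.2% lower, the counts were 790 of 969 (81.5%) and 1227 of 1390 (88.3%). All 24 genes named for the largest changes passed in the same direction with shA1. In OIS-v-v cells all of the falls did, and 11 of 12 rises. The exception was *ARC*, with a log2 fold change of 1.29 (adjusted p = 0.0679) that was 1.37 with the replicate number as a block (adjusted p = 0.0146).

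These genes were picked for their size in OIS against Grow, so that smaller values elsewhere are a description: with shA1 10 of 12 rises and 10 of 12 falls were smaller, and in OIS-v-v cells 11 and 12 of 12. The interaction of RAS with shA1, fitted on all 4 groups, passed for 23.6% of genes, and for 6 of 12 rises and 6 of 12 falls, in a fit that shares the Grow and OIS libraries used to pick them. *PI3* had an interaction of -2.43 and *ITGBL1* one of 2.16. Ribosome biogenesis factors rose in 56 of 62 cases with shA1 and in 26 of 62 in OIS-v-v cells, with 2 and 1 lower, which in OIS-v-v cells was 34 and 3 with the block. Mitochondrial ribosomal proteins rose in 52 and fell in 5 of 75 cases with shA1, but in OIS-v-v cells rose in 11 and fell in 6 (median 0.04), 13 and 9 with the block, against a background of 22.7% and 23.2%. Lamina genes fell in 12 of 14 and 11 of 14 cases, and KLF genes in 10 and 7 of 12. Feedback genes of ERK rose in 14 of 19 in both.

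**Figure D5:**
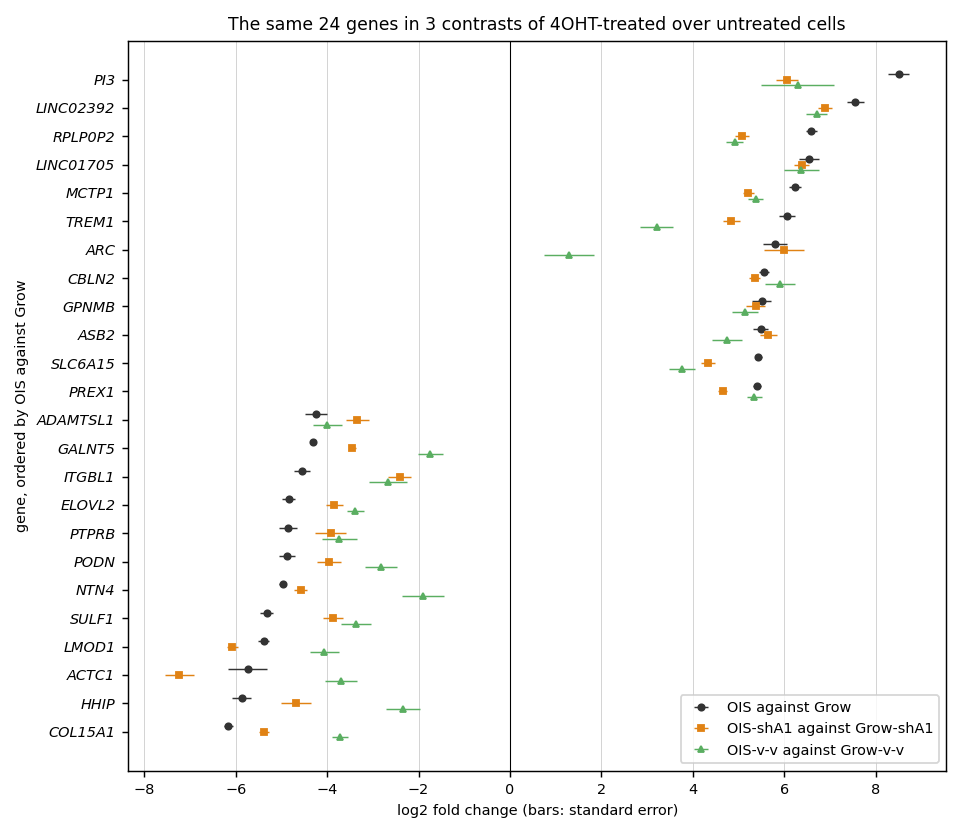
Log2 fold change of the 12 largest rises and 12 largest falls in OIS against Grow, OIS-shA1 against Grow-shA1 and OIS-v-v against Grow-v-v, with bars of 1 standard error. All points keep their direction, and *ARC* stands lowest of the rises in OIS-v-v cells at 1.29.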

How the data were processed

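The authors made poly(A)-selected libraries from IMR90 cells with stranded mRNA kits, used STAR for alignment to hg19 and featureCounts for counting fragments over GENCODE19 exons. Both deposited tables give raw counts per gene (44503 genes), with no normalisation. Per the file headers, featureCounts 1.5.2 was run on the main table without strand and without multi-mapped or multi-overlapping fragments, so that reads shared by overlapping, antisense or near-identical genes were lost. The methods name a later release of the same package and do not say for which table, and the table with OIS-v-v cells has no program header. The labels do not assign kits or instruments to libraries. Symbols were found for 77.6% of identifiers. Every column of both tables belongs to a sample of the series, and 15 columns of 3 other groups were not used. Genes of the mitochondrial genome were not analysed here.

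Each comparison was fitted on its own groups with edgeR 4.0.16 under R 4.3.3 (TMM factors, filterByExpr, quasi-likelihood F test, Benjamini-Hochberg adjustment over all genes tested). A gene passed at an adjusted p under 0.05, and the standard error is the log2 fold change divided by the square root of F. The interaction was fitted on 4 groups. Genes were tested in OIS against Grow without a replicate block. The replicate numbers of the labels did not pair these libraries, nor those with shA1, since the deviations of same-numbered libraries correlated by -0.015 to 0.057 and -0.024 to 0.178. For the OIS-v-v and Grow-v-v libraries the correlations of all 5 pairs were 0.142 to 0.312, so that the numbers pair them. Values for these cells come from the fit without the block, and the blocked value is given where it changes a printed call or moves a printed count by over 1.5 times.

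The members and gene lists were chosen with earlier results of these data known. The lists hold 1991 names in 28 lists, of which 9 were not matched (*PCGF2*, *UHRF1*, *ACACA*, *DUSP14*, *SPRY3*, *SOD2*, *IKBKG*, *IKBKE* and *PANDAR*) and 1382 genes were tested, 587 of them higher and 540 lower. The SASP and cell cycle lists had 73 and 392 tested genes. The gene lists also hold genes of the cell cycle list, which are named as such. *AXIN2* and *TLR2* were under the filter, and *HPGD* had no count. Genes named are the 12 largest rises and 12 largest falls that passed with a mean of at least 5 CPM, without overlap between the groups and outside the SASP and cell cycle lists, the key genes of each list with its 2 largest rises and falls at that level, and the 8 highest genes crossing from under 0.5 to at least 5 CPM in each direction. Others, such as *POLR1C*, *POLR1B*, *MCOLN1*, *GAA* and the genes in runs of neighbours, were chosen after their values were seen. Pairs of libraries in a group differed by more than counting noise, so that none was counted as a duplicate.

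The fits were tested on simulated counts for OIS against Grow. For each direction and size 50 genes were changed, as many up as down, with counts drawn from the spread that edgeR estimated in these libraries. Of genes changed 4-fold, 46 of 46 tested falls and 50 of 50 rises were recovered. Of genes changed 2-fold 47 of 49 and 47 of 48 were, while 7 of 12744 unchanged genes were called. In the data 74.8% of genes passed, so the simulation checks the running of the fit and cannot test the scaling. The alternatives were scaling by library sizes alone or by upper-quartile factors, DESeq2 1.42.0, a filter of 1 count in all or of 10 counts per library (the shallow OIS replicate 4 left aside), an adjusted p under 0.01, folds of 1.5 and 2, the replicate block, 4 groups in 1 fit, and each library left out. Promoters came from RefSeq on GRCh38.p14 and were matched by symbol, while all gene coordinates are on hg19. Python 3.11.15 with matplotlib 3.10.9 drew the figures. Some results for single genes are not included here.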

Additional observations from a re-analysis of the deposited data

Results flagged for a closer look

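Single libraries stood apart from the other 7 of their group, by Dixon's criterion, in 11 of 170 groups examined (6.47%), where chance gives about 1 in 20. In 4 of the 11 the library was OIS replicate 4, the one with 1903607 counts: *ADAMTSL1* (1.49 CPM), *NCL* (1113 CPM), *NFKBIA* (104.8 CPM) and *MIR31HG* (11.42 CPM). The other values were *ID1* in OIS replicate 8 (100.3 CPM) and *FTH1* in OIS replicate 2 (955.7 CPM), and in Grow *CBLN2* (4.282 CPM), *ELOVL2* (12.39 CPM) and *NRXN3* (2.982 CPM) in replicate 1, *H2AJ* in replicate 3 (20.55 CPM) and *NEAT1* in replicate 4 (35.34 CPM).

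The change with RAS differed between cells with and without shA1 by the test of the interaction for 12 of the 24 largest changes. For 6 rises the change was smaller with shA1: *PI3* by -2.43 on the log2 scale, *RPLP0P2* by -1.51, *TREM1* by -1.21, *SLC6A15* by -1.08, *MCTP1* by -1.02 and *PREX1* by -0.73. For 5 falls it was smaller in size, with interactions of 2.16 for *ITGBL1*, 1.47 for *SULF1*, 1.01 for *ELOVL2*, 0.87 for *GALNT5* and 0.78 for *COL15A1*, and for *LMOD1* it was larger in size (-0.67). These genes were picked from the Grow and OIS libraries that enter the test.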

How the results depend on the processing

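The direction of most calls held under the alternatives run, and the counts depended mainly on the fold limit, the scaling and the filter. With a fold of at least 1.5, 2302 genes were higher and 2553 lower in OIS, 2087 and 2463 with shA1, and 1651 and 1999 in OIS-v-v cells. With a fold of at least 2 these were 1094 and 1468, 940 and 1374, and 841 and 1128. Genes at least 2-fold higher numbered 2800 with no filter and 673 with at least 10 counts in every library. The interaction had 888 higher and 3456 lower genes with library sizes alone, and 1071 and 929 at an adjusted p under 0.01. Of the 100 list counts (2 directions for each list), 27 moved by over 1.5 times in at least 1 alternative. With library sizes alone, which raise the median of all genes, more genes were higher among nucleoporins (10), Polycomb (17), DNA methylation and demethylation (11), fatty acid synthesis (3), splicing (22), proteasome (25), citric acid cycle (13), KLF (3), mesenchymal (5), clock (8) and lamina genes (1). Fewer were then lower among autophagy (3), DNA methylation and demethylation (3), fatty acid synthesis (2), lipid efflux (1), splicing (9), proteasome (6), iron (2), mesenchymal (4) and long noncoding genes (5). With upper-quartile factors 8 nucleoporins and 1 KLF gene were higher and 1 lipid efflux gene lower. With at least 10 counts in every library 3 EGF family genes, 2 integrins, 1 cadherin and 1 KLF gene were higher and 1 lipid efflux gene lower. With no filter 9 proteasome, 7 FGF and VEGF, 47 ion channel, 2 KLF and 14 TBX and homeobox genes were higher, and in the fit of 4 groups 1 KLF gene. With each library left out, higher proteasome genes ranged from 8 to 14, higher KLF genes from 0 to 1, lower lipid efflux genes from 1 to 2 and lower SOX genes from 1 to 2 (2 without Grow replicate 1).

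Of named genes that had not passed, *WNT5A* (0.12), *MT2A* (0.11) and *ICAM1* (0.11) changed sign with library sizes alone, *HBEGF* did so without Grow replicate 6 (its values with single libraries left out ran from -0.02 to 0.05), and *BCL2L1* had -0.01 with DESeq2 and with the replicate block, -0.02 with no filter and in the fit of 4 groups, and between -0.03 and 0.03 with single libraries left out. *TET2*, *DUSP7*, *HMGCS1*, *ID1*, *MYLIP* and *MT1L* did not pass with library sizes alone, and *CTSD*, *HBEGF*, *FTH1* and *BCL2L1* then passed. The cause of these changes was not tested. With each library left out, 4951 to 5289 genes were higher and 4709 to 4962 lower in OIS. The replicate block gave 5084 higher and 4743 lower genes in OIS against Grow and changed no call of a named gene there, and in OIS-v-v cells it changed 11 calls of 249 named genes tested there, that of *ARC* alone among the 24 largest changes, and moved a count by over 1.5 times in 13 of 50 lists. OIS replicate 4 limits the depth in OIS.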

Other observations

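Further runs of neighbours moved in OIS, all chosen after their values were seen. *STC1*, a secreted glycoprotein hormone, and *NEFM*, a neurofilament, lay in a run on chromosome 8. *STC1* went from 1356 CPM (994 to 1969) to 4822 CPM (4473 to 5165), a log2 fold change of 1.79 (standard error 0.08), and *NEFM* from 0.0869 CPM (0 to 0.459) to 1.98 CPM (1.58 to 5.96). *CYGB*, cytoglobin, in a run on chromosome 17, rose from 11.4 CPM (10.1 to 13.2) to 64.5 CPM (40.2 to 81.5), a log2 fold change of 2.52 (standard error 0.09), and part of its exons overlaps other genes. *NLGN1*, a neuroligin, in a run on chromosome 3, fell from 11.2 CPM (6.4 to 12.9) to 1.94 CPM (1.24 to 3.27), a log2 fold change of -2.29 (standard error 0.16). *EHD4*, a protein of endosomes on chromosome 15, fell from 114 CPM (108 to 117) to 51.8 CPM (47.2 to 55.7). The groups did not overlap for any of these genes, and *NEFM* passed the filter on low counts only through the OIS libraries.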
